A study of Homo sapiens with 8 samples.

Results

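The 41 genes described here encode working parts of the lysosome. They comprise 6 membrane proteins, 7 proteases, 9 glycan hydrolases, 4 sphingolipid enzymes and precursor proteins, and 15 subunits of the V-ATPase, the proton pump of the lysosomal membrane. The genes were picked by symbol and known function from the 60230 genes of the count table, when earlier results of these data were already known. Every symbol was found. Of these, 40 passed the filter on low counts and were tested together with 13400 genes in all. CTSZ, which encodes the protease cathepsin Z, was the exception. It had between 0.0823 and 0.392 CPM, its counts scaled to the normalized total of the library, in the 8 libraries.

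HepG2 cells stem from a human liver cancer, and all cells of the study carried an introduced CYP2C19, the gene of a drug-metabolizing cytochrome P450, and were kept in blasticidin. Whether they derive from a single clone is not given in the sources used here. Cells were treated for 24 h with compound 4 (named metylcresol in the sample labels), compound 5 (tetrabut) or compound 6 (cyclohexil), or with DMSO as the control, and RNA of 2 replicates per group, labelled day 1 and day 2, was sequenced. The compounds are plastic antioxidants in which a short carbon bridge joins a pair of phenol rings. Compounds 4 and 6 share a methylene bridge and a methyl group on each ring, and differ in the other ring substituent, which is tert-butyl in compound 4 and cyclohexyl in compound 6. Compound 5 has an ethylidene bridge and tert-butyl groups only. Each compound was given at its own IC50, so the concentrations were close to each other but not equal. Nothing states that the replicates came from separate cultures, so the p-values measure only the spread between these samples, which may be technical.

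Between 9791659 and 17814595 read pairs per library were counted on genes, a ratio of 1.82. According to the labels, the libraries of DMSO replicate 1 and compound 4 replicate 1 each combine 2 sequenced portions. The 10 hepatocyte markers had counts in every library, with a summed level of 51546 to 55622 CPM under DMSO, 36019 to 43575 CPM under compound 4, 44642 to 45892 CPM under compound 5 and 38656 to 44712 CPM under compound 6. Macrophages are rich in lysosomes, but PTPRC, CSF1R, CD163 and MARCO were at 0 counts in all libraries, while LYZ ranged from 1380 to 2164 CPM. AIF1 had at most 0.502 CPM. CD14 had 0.717 and 0.419 CPM under DMSO, 1.41 and 1.60 CPM under compound 4, 0.823 and 0.683 CPM under compound 5, and 1.37 and 1.14 CPM under compound 6. Its log2-fold change of 1.42 under compound 4 did not pass the threshold in edgeR's test, and its counts were only 5 to 21. The fibroblast markers COL1A2, DCN and LUM were also at 0 counts, whereas PDGFRB had 9.12 and 5.02 CPM under DMSO, 23.2 and 25.3 CPM under compound 4, 11.4 and 7.63 CPM under compound 5, and 14.6 and 14.3 CPM under compound 6. It rose by 1.79 on the log2 scale under compound 4 (edgeR's adjusted p = 0.00634). COL1A1 had at most 0.102 CPM. Among the endothelial markers, KDR was at 0 counts in all libraries, and PECAM1, VWF and CDH5 had at most 0.532, 1.23 and 0.568 CPM. Introduced and native CYP2C19 transcripts together gave 27.7 and 16.4 CPM under DMSO and 31.4 and 44.3 CPM under compound 4. They gave 52.8 and 37.96 CPM under compound 5 and 23.9 and 21.2 CPM under compound 6. Both libraries of compounds 4 and 5 thus lay above both DMSO libraries, whereas those of compound 6 lay between the DMSO values. The sum of the hepatocyte markers was lower in every treated library than in both DMSO libraries, but not every marker fell. Estimates lay above 0 for 3, 2 and 2 of the 10 under compounds 4, 5 and 6 (51.4%, 50.4% and 52.7% of all genes). Under compound 4, 0 were called higher and 4 lower (5.6% and 3.91% of all genes). Under compound 5, 1 was called higher and 0 lower (5.35% and 2.95%). The 2 estimates above 0 under compound 5 were those of KRT18 and FGB. KRT18 had 968 and 882 CPM under DMSO, 1150 and 1020 CPM under compound 4, 1158 and 1179 CPM under compound 5, and 909 and 979 CPM under compound 6. FGB had 172 and 200 CPM under DMSO and 254 and 285 CPM under compound 5. It was lower under compound 4 (153 and 134 CPM) and compound 6 (140 and 130 CPM). The part of these markers, of CD14, of PDGFRB and of CYP2C19 in the results for lysosomal genes was not tested. In bulk RNA, fewer cells with a transcript and less of that transcript per cell cannot be told apart.

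Lysosomes degrade proteins, glycans, lipids and whole organelles delivered by endocytosis and autophagy. Their soluble hydrolases are made in the endoplasmic reticulum and mostly sorted through mannose 6-phosphate tags, and they work in the acid lumen that the V-ATPase maintains by pumping protons. In hepatocytes lysosomes also release cholesterol from ingested lipoproteins. Transcription of many lysosomal genes is driven by the related factors TFEB, TFE3 and MITF, which bind E-box sequences near gene starts, known as CLEAR elements.

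Under DMSO the members spanned a wide range of levels. Divided by the summed exon length of the coding transcripts, CTSD, the gene of the aspartic protease cathepsin D, was highest with a level of 183 ± 9.11 CPM per kb (SD, n = 2). It was followed by PSAP, the precursor of the saposins that present sphingolipids to hydrolases, with 166 ± 12.5 CPM per kb, and by CTSB, the gene of the cysteine protease cathepsin B, with 154 ± 21.7 CPM per kb. The DMSO libraries of PSAP and CTSB overlapped, so their order cannot be told apart, as was the case for 20 of the 39 pairs of neighbours in the ranking. The lowest levels were those of MANBA (5.93 CPM per kb), a beta-mannosidase, MCOLN1 (4.75 CPM per kb), the lysosomal calcium channel, and SMPD1 (0.712 ± 0.234 CPM per kb), acid sphingomyelinase. V-ATPase subunits ranged from 98.8 CPM per kb for ATP6V0C, a proteolipid of the membrane ring, down to 8.4 CPM per kb for ATP6V1C1, a subunit of the cytosolic part.

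**Figure D1:**
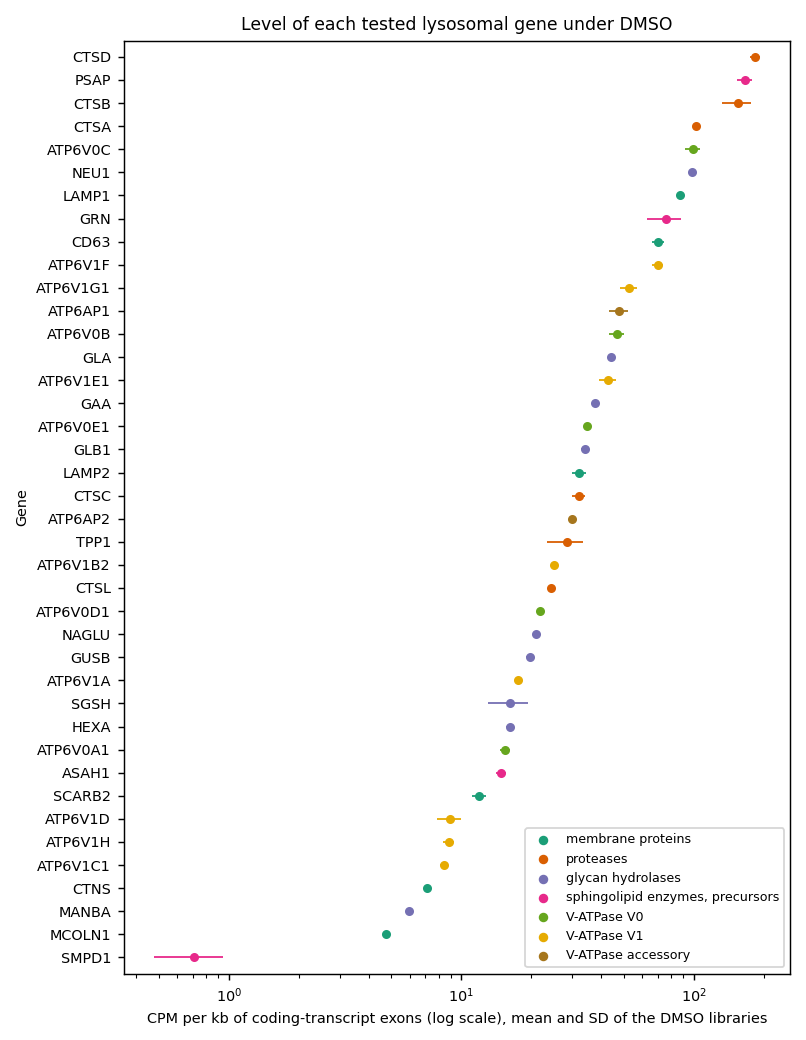
Level of each of the 40 tested lysosomal genes under DMSO, in CPM per kb of coding-transcript exons on a log axis, with the mean and SD of the 2 DMSO libraries as point and bar and the gene group as colour. CTSD, PSAP and CTSB lie at the top, between 154 and 183 CPM per kb, and SMPD1 lies apart at the bottom with 0.712 CPM per kb.

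Sequences around the gene starts were read for the members because TFEB-type factors bind there. RefSeq windows of 300 bases on GRCh38.p14, from 250 bases before to 50 bases after a gene start, were found for 28 of the 41 members, with 38 windows in all. The E-box CACGTG, which reads the same on both strands, was present in windows of 10 of the 28 members (35.7%), against 8.77% of all genes with a window and 12.8% of the tested genes with a window. The longer TCACGTG (either strand) was present in 9 members (32.1%), against 4.49% of all genes and 7.4% of tested genes with a window. The full symmetric CLEAR consensus of 10 letters was present in 3 members (10.7%), against 0.421% and 0.927%. Since CLEAR elements are known from lysosomal genes, these shares are a description only. These motifs are nested, so each longer match is also a match of the shorter one. Of the 5 members with a window among the 8 past the threshold in any comparison with DMSO, ATP6V0B and CD63 held the E-box, whereas CTNS, CTSL and ATP6V1E1 did not. The following stretches of 30 bases, 5′ to 3′ on the strand of the gene, show the E-boxes of these and of members with a full CLEAR consensus, with CACGTG in capitals.
ATP6V0B, chr1:43974891-43974920, plus strand: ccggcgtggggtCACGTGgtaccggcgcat
ATP6V0B, chr1:43974909-43974938, plus strand: gtaccggcgcatCACGTGggcgagttaggt
CD63, chr12:55729172-55729201, minus strand: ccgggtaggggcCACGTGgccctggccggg
MCOLN1, chr19:7522571-7522600, plus strand: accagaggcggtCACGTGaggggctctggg
MCOLN1, chr19:7522598-7522627, plus strand: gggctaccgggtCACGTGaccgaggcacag
GAA, chr17:80101493-80101522, plus strand: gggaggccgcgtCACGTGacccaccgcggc
GAA, chr17:80101538-80101567, plus strand: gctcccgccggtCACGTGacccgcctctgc
ATP6V1G1, chr9:114587699-114587728, plus strand: acgctgtgcggtCACGTGacaacgggggcg
The E-boxes of ATP6V0B began 57 and 39 bases before the RefSeq start, inside an exon of the gene in GENCODE 29, and the E-box of CD63 began 180 bases before one of its RefSeq starts. LAMP1, which encodes a major membrane glycoprotein of lysosomes, held 6 E-boxes in a window.

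An antioxidant response element, to which NRF2 binds and which was searched as TGACNNNGC on both strands, was found in windows of 13 of the 28 members (46.4%), against 16.1% of all genes and 19.8% of tested genes with a window. Among the members past the threshold it was present near CTSL and ATP6V0B. Both stretches are shown with the match in capitals, and that of CTSL is the motif read from the other strand.
CTSL, chr9:87726086-87726115, plus strand: ggttttagaaGCAGAGTCAggcgaagctgg
ATP6V0B, chr1:43974928-43974957, plus strand: gcgagttaggTGACGCTGCggggcgggcgg
ATP6V0B, ATP6V0D1, ATP6V1G1, CTSA, CTSD, GAA and LAMP1 held both this element and the E-box. The patterns can share letters. In the first GAA stretch above, an element read from the other strand runs into the E-box. The shares of both motifs are therefore not independent. A match of letters is a description of the sequence and not evidence of binding.

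Each compound was compared with DMSO to ask which transcripts changed on exposure. Under compound 4, 6 of the 40 members passed the threshold (adjusted p under 0.05), of which CTSB, CTSL, ATP6V1E1, CD63 and ASAH1 rose and NAGLU fell, against 9.51% of all 13400 genes tested. Under compound 5, 3 of 40 passed, with ATP6V0B and CTNS higher and NAGLU lower, against 8.3% of all genes. Under compound 6, 0 of 40 passed by edgeR's quasi-likelihood test, against 0.575% of all genes. There, 5 members had an unadjusted p under 0.05 (18.6% of all genes), and DESeq2 called 2, CTSB and CTSL (3.91% of all genes). With the day as a replicate block in edgeR's test, 9 members passed under compound 4 (12.7% of all genes), 6 under compound 5 (10.7%) and 0 under compound 6 (0.507%). Members called thus made up 15% under compound 4 and 7.5% under compound 5, the latter below the share of all genes. By direction, 5.6% of all genes were called higher and 3.91% lower under compound 4, 5.35% and 2.95% under compound 5, and 0.493% and 0.0821% under compound 6.

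Smaller shifts were counted over the whole set. The median log2-fold change of the 40 members was 0.17 for compound 4, 0.15 for compound 5 and 0.01 for compound 6, beside 0.01, 0.00 and 0.02 for all genes tested. Estimates lay above 0 for 30, 28 and 20 members, respectively, whereas they did so for 51.4%, 50.4% and 52.7% of all genes. Both libraries of compound 4 lay above both DMSO libraries for 23 members (57.5%, against 30.4% of all genes), and those of compound 5 for 23 members (57.5%, against 31%). For compound 6 this was so for 12 members (30%, against 29.3%). Both treated libraries lay below both DMSO libraries for 6 members under compound 4 (15%, against 28% of all genes), 8 under compound 5 (20%, against 28.5%) and 10 under compound 6 (25%, against 26%). The 3 comparisons share the DMSO libraries, so their values are not independent.

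**Figure D2:**
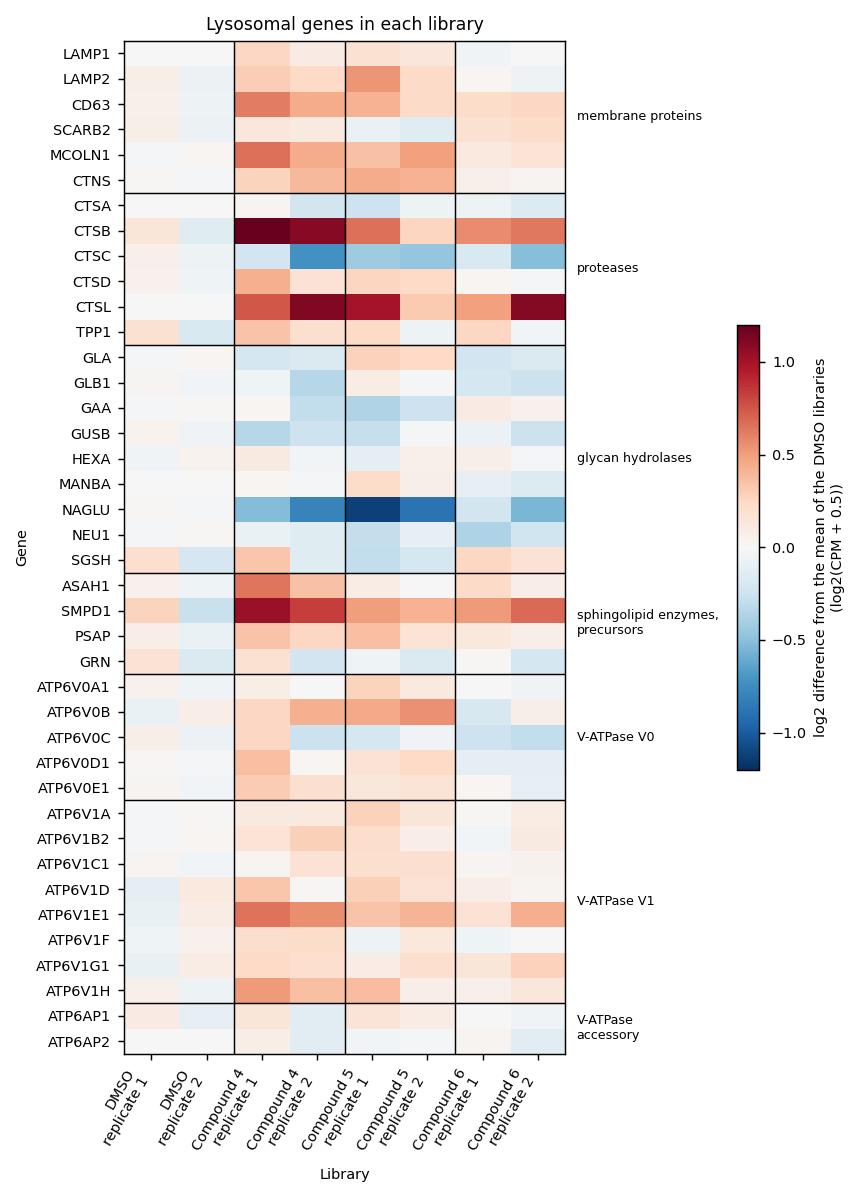
Difference of each tested lysosomal gene from the mean of the DMSO libraries on the scale of log2(CPM + 0.5), with genes in rows by group and the 8 libraries in columns. CTSB, CTSL and SMPD1 are among the deeper red rows under compound 4 and NAGLU is among the deeper blue rows, most of the V-ATPase rows are faintly red under compounds 4 and 5, and the rows of the glycan hydrolases are mostly pale or blue.

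Summed over all 41 members, the transcripts took 5120 and 4749 CPM in the DMSO libraries, 6471 and 5832 CPM under compound 4, 5688 and 5255 CPM under compound 5, and 5265 and 5216 CPM under compound 6. All 6 treated libraries lay above both DMSO libraries in this sum. CTSB alone accounted for 13.8% and 12.2% of it under DMSO and for 22.7% and 23.3% under compound 4. Without CTSB, the sums were 4414 and 4171 CPM under DMSO, 5003 and 4473 CPM under compound 4, 4680 and 4492 CPM under compound 5, and 4317 and 4226 CPM under compound 6, so that compound 6 no longer stood above DMSO.

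Of the proteases, CTSB and CTSL rose under compound 4, and in edgeR's test without the block no member of the group passed the threshold under compounds 5 and 6 (group medians of the log2-fold change 0.28, 0.17 and 0.05 for compounds 4, 5 and 6). DESeq2 called both genes under compound 5 (adjusted p = 0.0189 for CTSB and 0.0241 for CTSL) and compound 6 (0.00451 and 0.0122). The median for compound 6 turned to −0.0554 without DMSO replicate 2 and to −0.0466 without compound 6 replicate 1. CTSB (chr8:11842524-11869448, minus strand) had 706 and 578 CPM under DMSO, 1468 and 1360 CPM under compound 4, 1008 and 763 CPM under compound 5, and 947 and 990 CPM under compound 6. All treated libraries lay above both DMSO libraries, and those of compound 4 stood above all others. The log2-fold change was 1.14 ± 0.15 (SE), a 2.20-fold rise, for compound 4 (quasi-likelihood test of edgeR, adjusted after Benjamini and Hochberg, adjusted p = 0.00411). It was 0.46 ± 0.15 for compound 5 (adjusted p = 0.0758) and 0.59 ± 0.15 for compound 6 (adjusted p = 0.0838), and with the replicate block the adjusted p was 0.0394 for compound 5 and 0.0584 for compound 6 in edgeR's test. CTSB was the member whose call for compound 4 held most widely, in 14 of 15 settings, and it was lost without DMSO replicate 2 (log2-fold change 1.00, adjusted p = 0.0633 in edgeR's test). Leaving out compound 5 replicate 1 gave CTSB a log2-fold change of 0.24 for compound 5, and leaving out its replicate 2 gave 0.66, which passed (edgeR's adjusted p = 0.0198). The call for compound 6 appeared without compound 5 replicate 1 (edgeR's adjusted p = 0.0394) or replicate 2 (0.0376).

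CTSL (chr9:87725519-87731393, plus strand) encodes cathepsin L, a cysteine protease that degrades proteins taken up or delivered by autophagy. It had 57.3 and 57.9 CPM under DMSO, 96.8 and 125 CPM under compound 4, 115 and 71.5 CPM under compound 5, and 80.9 and 124 CPM under compound 6. Every treated library exceeded the DMSO libraries, but the replicates within each treated group lay far apart. The log2-fold change was 0.95 ± 0.25 (edgeR's adjusted p = 0.0431) for compound 4, 0.69 ± 0.25 (0.109) for compound 5 and 0.83 ± 0.25 (0.133) for compound 6. Its call for compound 4 was lost with the replicate block (edgeR's adjusted p = 0.0522) and without either DMSO library or either compound 4 library, with adjusted p between 0.0588 and 0.232. Its change under compound 5 came to 0.30 when replicate 1 of that group was omitted and to 1.01 when replicate 2 was omitted, where it passed (edgeR's adjusted p = 0.0281). The corresponding values for compound 6 were 1.10 on omission of its replicate 1 and 0.49 on omission of its replicate 2. Annotated copies of CTSL took at most 5.01% as many counts as the gene itself.

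The other proteases moved less. CTSC, which encodes cathepsin C, an activator of other proteases, had 256 and 234 CPM under DMSO, 208 and 147 CPM under compound 4, 181 and 177 CPM under compound 5, and 216 and 171 CPM under compound 6. All 6 treated libraries lay below both DMSO libraries, yet the log2-fold changes of −0.46 ± 0.17, −0.45 ± 0.17 and −0.34 ± 0.17 did not pass the threshold (edgeR's adjusted p = 0.109, 0.115 and 0.310). With the replicate block, CTSC passed for compound 4 (edgeR's adjusted p = 0.0376) and compound 5 (0.0493), and DESeq2 called it for compound 4 (adjusted p = 0.0472). The change under compound 4 was −0.74 without compound 4 replicate 1 (edgeR's adjusted p = 0.0326) and −0.23 without compound 4 replicate 2. CTSD had log2-fold changes of 0.31, 0.25 and 0.00, and the lysosomal carboxypeptidase gene CTSA had changes of −0.09, −0.15 and −0.11 for compounds 4, 5 and 6. Exons of CTSA overlap those of NEURL2 and PLTP on the other strand, so its counts are uncertain where strand was not used in counting.

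Of the membrane proteins, CD63 rose under compound 4 and CTNS under compound 5, and the group medians were 0.30, 0.36 and 0.10 for compounds 4, 5 and 6. CD63 (chr12:55725323-55729707, minus strand), a tetraspanin of late endosomes, had 169 and 155 CPM under DMSO, 248 and 221 CPM under compound 4, 217 and 189 CPM under compound 5, and 188 and 193 CPM under compound 6. All treated libraries lay above the DMSO libraries, with compound 4 highest. Its log2-fold change was 0.54 ± 0.11 for compound 4 (edgeR's adjusted p = 0.0201), 0.33 ± 0.11 for compound 5 (0.0975) and 0.23 ± 0.11 for compound 6 (0.299). CD63 shares exon positions with CD63-AS1 on the other strand. Its call was lost without either DMSO library or either compound 4 library (edgeR's adjusted p between 0.0631 and 0.197).

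CTNS (chr17:3636468-3661542, plus strand) encodes cystinosin, the exporter of cystine. It had 23.3 and 22.7 CPM under DMSO, 27.8 and 30.3 CPM under compound 4, 31.4 and 30.9 CPM under compound 5, and 24.0 and 23.6 CPM under compound 6. The replicates lay close together in each group, and compounds 4 and 5 stood clear of DMSO and compound 6. The log2-fold change was 0.44 ± 0.12 for compound 5 (edgeR's adjusted p = 0.0491), 0.34 ± 0.12 for compound 4 (0.101) and 0.05 ± 0.12 for compound 6 (0.852). The call for compound 5 was the least stable of all, since it held in 2 of 15 settings, with adjusted p of up to 0.241.

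MCOLN1, the gene of the calcium channel mucolipin, had 9.74 and 10.0 CPM under DMSO, 15.95 and 13.6 CPM under compound 4, 12.8 and 14.1 CPM under compound 5, and 10.8 and 11.2 CPM under compound 6. Its log2-fold change under compound 4 was 0.58 ± 0.16, outside the threshold (edgeR's adjusted p = 0.0509). It passed with the replicate block but not with DESeq2 (adjusted p = 0.177), and in 4 of 15 settings in all. MCOLN1 shares exon positions with PNPLA6 on the same strand. LAMP2, which encodes a receptor of chaperone-mediated autophagy, had 187 and 169 CPM under DMSO, 218 and 209 CPM under compound 4, 257 and 208 CPM under compound 5, and 180 and 170 CPM under compound 6. Its log2-fold change of 0.39 ± 0.12 under compound 5 gave an adjusted p of 0.0770 in edgeR's test, and 0.0397 with the replicate block. SCARB2, a glycoprotein of the lysosomal membrane, had the lowest log2-fold change of the group under compound 5 (−0.11), with 73.4 and 69.9 CPM, against 81.2 and 73.8 CPM under DMSO, 85.2 and 83.3 CPM under compound 4 and 87.8 and 90.3 CPM under compound 6. None of its differences from DMSO passed the threshold in edgeR's test.

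The glycan hydrolases had medians below 0 for each compound (−0.13, −0.14 and −0.16 for compounds 4, 5 and 6), with 6 of 9 estimates below 0 each time, whereas the medians of the other groups were above 0 for compounds 4 and 5. NAGLU (chr17:42536172-42544449, plus strand), which encodes the alpha-N-acetylglucosaminidase of heparan sulfate breakdown, was the member of the group that passed the threshold. It had 53.6 and 52.7 CPM under DMSO, 36.9 and 30.3 CPM under compound 4, 24.1 and 28.5 CPM under compound 5, and 45.5 and 36.1 CPM under compound 6. Each treated library lay below both DMSO libraries, and the lowest values were those of compound 5. NAGLU fell by 0.66 on the log2 scale under compound 4 (SE 0.16, edgeR's adjusted p = 0.0296) and by 1.01 under compound 5 (SE 0.16, adjusted p = 0.00927). The change of −0.38 ± 0.16 under compound 6 did not pass (edgeR's adjusted p = 0.235). Leaving out either DMSO library ended both calls (edgeR's adjusted p between 0.0679 and 0.173), as did leaving out compound 4 replicate 2 for compound 4 (0.189) and compound 5 replicate 1 for compound 5 (0.0664).

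No other glycan hydrolase passed the threshold against DMSO in edgeR's test. SGSH, heparan N-sulfatase, had 61.9 and 46.7 CPM under DMSO, 67.8 and 48.6 CPM under compound 4, 43.8 and 46.3 CPM under compound 5, and 63.9 and 60.5 CPM under compound 6. Its DMSO replicates lay further apart than most of the group means, and its exons overlap those of SLC26A11 on the other strand. GLA, alpha-galactosidase A, had 62.1 and 64.3 CPM under DMSO, 54.5 and 56.04 CPM under compound 4, 76.5 and 74.9 CPM under compound 5, and 53.8 and 55.8 CPM under compound 6. The GLA replicates were tight and the groups did not overlap between compound 5, DMSO and the other compounds, but the largest difference from DMSO, 0.26 ± 0.10 for compound 5, gave an adjusted p of 0.126 in edgeR's test. The log2-fold changes of GLB1, GAA, GUSB, HEXA, MANBA and NEU1 lay between −0.30 and 0.15 for all compounds, and none passed the threshold. GUSB, beta-glucuronidase, has 19 annotated copies whose counts came to between 55.4% and 92.5% of its own, so its value is uncertain.

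Of the sphingolipid enzymes and precursors, ASAH1 rose under compound 4, and the group medians were 0.40, 0.16 and 0.13 for compounds 4, 5 and 6. ASAH1 (chr8:18055992-18084998, minus strand), acid ceramidase, had 70.4 and 65.7 CPM under DMSO, 106 and 87.1 CPM under compound 4, 72.4 and 68.2 CPM under compound 5, and 79.96 and 71.7 CPM under compound 6. The compound 4 libraries lay above all others, although apart from each other. The log2-fold change was 0.51 ± 0.13 for compound 4 (edgeR's adjusted p = 0.0358), 0.05 ± 0.13 for compound 5 (0.826) and 0.16 ± 0.13 for compound 6 (0.539). The call was lost on leaving out any 1 of the DMSO, compound 4 or compound 6 libraries (edgeR's adjusted p between 0.0529 and 0.255), so it held in 9 of 15 settings.

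SMPD1 was low in these libraries and had 2.15 and 1.34 CPM under DMSO, 4.03 and 3.42 CPM under compound 4, 2.63 and 2.45 CPM under compound 5, and 2.65 and 3.03 CPM under compound 6. Its log2-fold change of 1.10 ± 0.33 under compound 4 had a wide 95% interval of 0.37 to 1.84 and an adjusted p of 0.0651 in edgeR's test. PSAP had 503 and 452 CPM under DMSO and 603 and 566 CPM under compound 4. Its log2-fold change was 0.29 (edgeR's adjusted p = 0.115, and 0.0451 with the replicate block), and it passed in 1 of 15 settings. GRN, the precursor of the granulins, had 198 and 156 CPM under DMSO, 200 and 150 CPM under compound 4, 169 and 156 CPM under compound 5, and 177 and 151 CPM under compound 6. The DMSO replicates of GRN lay further apart than any of its group means.

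**Figure D3:**
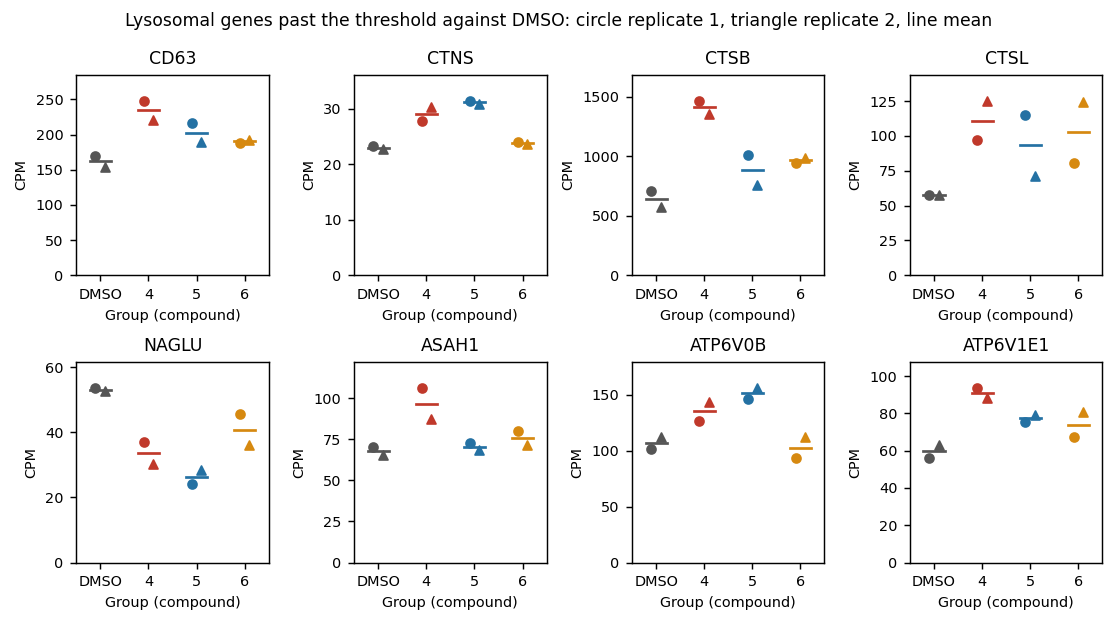
CPM of the 8 lysosomal genes past the threshold in any comparison with DMSO, by group, with replicate 1 as a circle, replicate 2 as a triangle and the mean as a line, and each axis starting at 0. CTSB under compound 4 reaches 1468 and 1360 CPM against 706 and 578 CPM under DMSO, and NAGLU under compound 5 falls to 24.1 and 28.5 CPM against 53.6 and 52.7 CPM.

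The V-ATPase consists of the membrane-embedded V0 part, which conducts protons, and the cytosolic V1 part, which hydrolyzes ATP. Among its 15 subunits, ATP6V1E1 rose under compound 4 and ATP6V0B under compound 5, and the group medians were 0.21, 0.20 and −0.02 for compounds 4, 5 and 6. Estimates lay above 0 for 14, 13 and 7 of the 15 subunits, respectively. The median for compound 6 turned positive, up to 0.0260, when either DMSO library or either compound 6 library was left out. In the single libraries the median difference of the subunits from the DMSO mean was 0.24 and 0.17 under compound 4, 0.20 and 0.15 under compound 5, and 0.01 and 0.03 under compound 6, on the scale of log2(CPM + 0.5), while the DMSO libraries stood at −0.01 and 0.01. All 8 V1 subunits had estimates above 0 for compounds 4 and 5, and all 5 V0 subunits had estimates below 0 for compound 6. The summed level of the 15 subunits was 1056 and 1045 CPM under DMSO, 1230 and 1133 CPM under compound 4, 1173 and 1180 CPM under compound 5, and 1026 and 1057 CPM under compound 6.

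ATP6V1E1 (chr22:17592136-17628818, minus strand), a peripheral stalk subunit of V1, had 56.1 and 63.2 CPM under DMSO, 93.6 and 88.1 CPM under compound 4, 75.5 and 79.4 CPM under compound 5, and 67.2 and 80.8 CPM under compound 6. It was above DMSO in all 6 treated libraries, and its 3 annotated copies had 0 counts. The log2-fold change was 0.61 ± 0.12 for compound 4 (edgeR's adjusted p = 0.0185), 0.38 ± 0.12 for compound 5 (0.0862) and 0.31 ± 0.12 for compound 6 (0.225). The call was lost without either DMSO library or either compound 4 library (edgeR's adjusted p between 0.0668 and 0.114). ATP6V0B (chr1:43974487-43978295, plus strand), a proteolipid of the V0 ring, had 101 and 112 CPM under DMSO, 126 and 144 CPM under compound 4, 146 and 156 CPM under compound 5, and 93.5 and 112 CPM under compound 6. Its levels under compounds 4 and 5 lay above all other libraries. The log2-fold change for compound 4 was 0.34 ± 0.12 (edgeR's adjusted p = 0.113, and 0.0442 with the replicate block), which passed in 1 of 15 settings. It was −0.06 ± 0.12 for compound 6, whereas it was 0.50 ± 0.12 for compound 5 (edgeR's adjusted p = 0.0390). Leaving out either DMSO library or either compound 5 library ended the call (edgeR's adjusted p between 0.0761 and 0.206).

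ATP6V0C, the other ring proteolipid, had 156 and 140 CPM under DMSO, 175 and 123 CPM under compound 4, 128 and 143 CPM under compound 5, and 124 and 121 CPM under compound 6, so its compound 4 replicates lay on either side of DMSO. ATP6AP2, an accessory subunit known as the prorenin receptor, had 69.9 and 70.5 CPM under DMSO, 73.8 and 63.9 CPM under compound 4, 68.8 and 68.9 CPM under compound 5, and 72.0 and 64.1 CPM under compound 6. Its groups overlapped, with log2-fold changes of −0.03, −0.03 and −0.04, with 95% intervals that reached from −0.30 to 0.23. ATP6V1H, a regulator of ATP hydrolysis in V1, had a log2-fold change of 0.44 under compound 4 (edgeR's adjusted p = 0.0755). The remaining 10 subunits had changes between −0.11 and 0.25 for all compounds.

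**Figure D4:**
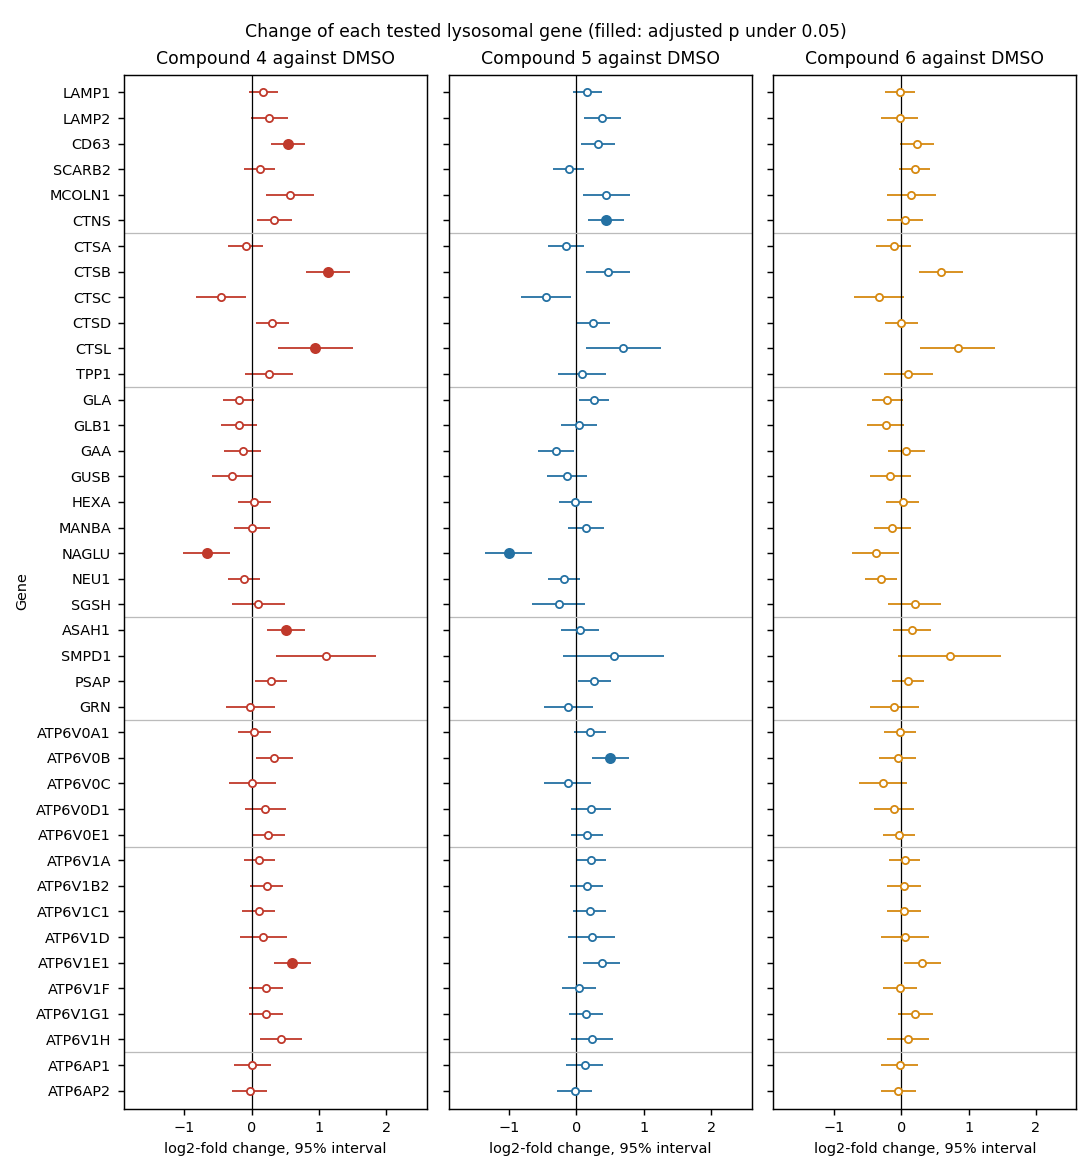
Log2-fold change of each tested lysosomal gene against DMSO with its 95% interval, 1 panel per compound, with filled points for an adjusted p under 0.05 and lines between the gene groups. Compound 4 has 6 filled points, compound 5 has 3 and compound 6 has none, and the V-ATPase points lie mostly right of 0 for compounds 4 and 5 and around 0 for compound 6.

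The compounds were also compared with each other at the same time point. Since each was used at its own IC50, the concentrations compared were close but not equal, and the part of that difference was not tested. In edgeR's test, 0 of 40 members passed the threshold when compound 4 was set against compound 5 (0.313% of all genes did), 0 for compound 6 against compound 5 (1.03%) and 0 for compound 4 against compound 6 (0%). The numbers of members with an unadjusted p under 0.05 were 4, 11 and 12, against 16.2%, 18.5% and 7.05% of all genes. DESeq2 called 1 member (CTSB) between compounds 4 and 5 (1.56% of all genes), 3 (ATP6V0B, GLA and NAGLU) between compounds 6 and 5 (3.3%), and 1 (CTSB) between compounds 4 and 6 (0.536%). With the replicate block, edgeR's test called CTSB for compound 4 against compound 5 (0.955% of all genes), ATP6V0B and GLA for compound 6 against compound 5 (2.01%), and 0 members for compound 4 against compound 6 (0.00746%).

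Compounds 4 and 6, which differ in a tert-butyl against a cyclohexyl group, gave the highest share of members on the same side. Compound 4 had the higher estimate for 34 of 40 members and for 15 of 15 V-ATPase subunits, whereas 48.3% of all genes had a higher estimate for compound 4. The median difference over the members was 0.14 on the log2 scale. CTSB showed the largest difference, 0.55 ± 0.14 with a 95% interval of 0.22 to 0.87, at an adjusted p of 0.411 in edgeR's test. For ATP6V0B the difference was 0.40 with an interval of 0.12 to 0.67, and for GLA it was 0.01 with an interval of −0.21 to 0.24.

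Between compounds 6 and 5, ATP6V0B was lower under compound 6, with a log2 difference of −0.56 ± 0.12 (95% interval −0.83 to −0.28, edgeR's adjusted p = 0.0657). GLA differed by −0.47 ± 0.10 (−0.69 to −0.24, edgeR's adjusted p = 0.0635) and NAGLU by 0.63 ± 0.16 (0.28 to 0.98, edgeR's adjusted p = 0.0858). The libraries of compounds 5 and 6 did not overlap for any of these 3 genes. The genes are among the members that differed most in this comparison. The share of all genes without overlap was not counted for this pair of compounds. Between compounds 4 and 5, CTSB was higher under compound 4 by 0.68 ± 0.15 (0.35 to 1.00, edgeR's adjusted p = 0.0928), and GLA differed by −0.45 ± 0.10 (−0.68 to −0.23, edgeR's adjusted p = 0.0959). For CTSL the intervals of the differences between compounds all reached across 0, from −0.43 at the lowest to 0.80 at the highest, so a difference between the compounds was not detectable.

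Lists of 98 other lysosomal genes held 84 that were tested. Of these, 10 were called higher and 3 lower under compound 4 (15.5%, against 9.51% of all genes). Under compound 5, 8 were called higher and 6 lower (16.7%, against 8.3%). Under compound 6, edgeR's test called 0 (0.575% of all genes), and 19 had an unadjusted p under 0.05 (22.6%, against 18.6%). The median log2-fold change of the 84 genes was 0.14, 0.04 and 0.10 for compounds 4, 5 and 6. Estimates lay above 0 for 65.5%, 56% and 61.9% of them (51.4%, 50.4% and 52.7% of all genes). Both libraries of compound 5 lay above both DMSO libraries for 38.1% and below them for 32.1%, against 31% and 28.5% of all genes. Among 17 tested membrane proteins, 4 rose under compound 4 (23.5%) and 3 under compound 5 (17.6%), beside 5.6% and 5.35% of all genes called higher. SLC17A5, the sialic acid exporter, had 21.2 and 19.3 CPM under DMSO, 41.3 and 39.8 CPM under compound 4, 36.6 and 33.3 CPM under compound 5, and 26.2 and 28.3 CPM under compound 6, with log2-fold changes of 1.00, 0.79 and 0.43. OSTM1, the partner of the chloride-proton exchanger ClC-7, rose by 0.90 under compound 4 and 0.70 under compound 5 on the log2 scale, and CD68, a lysosomal glycoprotein, rose by 0.80 under compound 4. The remaining rises in this list were those of CLCN7, which encodes ClC-7 itself, with 0.76 and 0.54, a gene named after its values were seen. Among 21 tested hydrolases and cofactors, 1 was called higher and 2 lower under compound 4 (14.3%, against 9.51% of all genes). Under compound 5, 0 were called higher and 4 lower (19%, against 8.3%), with 2.95% of all genes called lower. Their medians were 0.15, −0.11 and 0.01 for compounds 4, 5 and 6. IDS, iduronate 2-sulfatase of heparan sulfate breakdown, rose by 1.03 under compound 4. GM2A, the activator of ganglioside breakdown, fell by 0.90 under compound 4 and by 0.79 under compound 5.

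Of the V-ATPase subunits outside the set, 3 were tested. ATP6V0A2 rose by 0.91 under compound 5 and ATP6V0E2 fell by 0.79 under compound 4. That is 1 of 3 for each compound (33.3%, against 9.51% of all genes for compound 4 and 8.3% for compound 5). None of the 10 genes listed for V-ATPase assembly and regulation passed the threshold in edgeR's test. The highest and lowest estimates were both of TLDC2 (0.86 under compound 6 and −0.41 under compound 5), which had only 16 to 41 counts per library. Among 9 genes of mannose 6-phosphate sorting, 0 were called under compound 4 (9.51% of all genes). Under compound 5, 2 were called lower (22.2%, against 8.3% of all genes called). SORT1, sortilin, fell by 0.52 and GNPTAB, a subunit of the enzyme that makes the tag, fell by 0.46 under compound 5. Among 12 genes of mTORC1 control at the lysosome, 1 was called for each of compounds 4 and 5. This share of 8.33% was near that of all genes (9.51% and 8.3%). FNIP2 rose by 0.52 under compound 4 and FLCN, its partner folliculin, rose by 0.64 under compound 5. Among 10 tethering genes, 3 were called under compound 4 (30%, against 9.51% of all genes) and 1 under compound 5 (10%, against 8.3%). PLEKHM1, an adaptor for fusion of autophagosomes with lysosomes, rose by 0.97 under compound 4 and 1.05 under compound 5. RILP rose by 0.82 under compound 4. Under compound 6, 0 genes of these lists were called in edgeR's test (0.575% of all genes).

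Of the transcription factors of the family, TFEB had 8.20 and 6.87 CPM under DMSO, 11.5 and 14.2 CPM under compound 4, 12.3 and 12.6 CPM under compound 5, and 10.6 and 9.76 CPM under compound 6. It lay above DMSO in all 6 treated libraries, and rose by 0.78 ± 0.18 under compound 4 (edgeR's adjusted p = 0.0284) and by 0.73 ± 0.18 under compound 5 (0.0380), with 0.44 ± 0.19 under compound 6 (0.249). TFE3 had 36.8 and 37.3 CPM under DMSO, 46.2 and 61.4 CPM under compound 4, 71.9 and 59.5 CPM under compound 5, and 45.4 and 56.6 CPM under compound 6. Its log2-fold change was 0.82 ± 0.17 under compound 5 (edgeR's adjusted p = 0.0219), 0.54 ± 0.17 under compound 4 (0.0759) and 0.46 ± 0.17 under compound 6 (0.193). MITF was at most 0.512 CPM and TFEC had 0 counts in every library. RNA levels do not show whether these factors were active.

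The members with the E-box CACGTG in a RefSeq window were set beside those without it as a description. The 10 members with it had median log2-fold changes of 0.21, 0.19 and −0.01 for compounds 4, 5 and 6, and ranged from −0.13 to 0.58 under compound 4. The 17 tested members with a window and without the E-box had medians of 0.04, 0.09 and −0.02, and ranged from −0.46 to 1.10 under compound 4. The ranges of both sets overlapped, and CTSB, NAGLU and ASAH1 are in neither set.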

How the data were processed

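RNA of 8 samples in 4 groups of CYP2C19-overexpressing HepG2 cells was sequenced. Whole-number counts for 60230 genes were deposited by the authors, unnormalized, after abundance estimation in Salmon 1.5.0 (GENCODE 38 index, GRCh38) and gene-level summary in tximeta. The libraries were directional, and the strand setting of the counting is not given in the sources used here.

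Groups were taken from the sample labels. The members and gene lists were chosen with earlier results of these data known. In edgeR 4.0.16 (R 4.3.3), filterByExpr with a minimum count of 10 left 13400 genes. All samples entered a single quasi-likelihood fit with TMM factors and the group as the only term. Adjusted p-values after Benjamini and Hochberg cover all genes tested, with a threshold of 0.05, and the fit was tested on simulated data. With 2 samples against 2 no permutation test can pass that threshold, so none was run. CPM were computed from the library totals over the genes tested, scaled by the TMM factors. Values per kb used the exons of coding transcripts in GENCODE 29.

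Alternatives were DESeq2 1.42.0, the replicate block, the 4 samples compared, DESeq2's size factors, no filter, a minimum of 10 counts per sample throughout, and omission of each library in turn. The pairing of replicates comes from the day in the labels. The differences between replicates of different groups correlated across genes, which are not independent replicates, with r from −0.15 to 0.24 in the 6 pairs of groups. Within each group, the replicates differed by more than counting noise (mean chi-square between 8.20 and 19.1 per gene).

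The text gives every library's value for members past the threshold in any comparison and for the highest and lowest member of each group under each compound. From each other list it names at most 3 genes past the threshold, otherwise the highest and lowest, and CLCN7 was added after its values were seen. A few genes picked in this way are not reported here. Gene starts and windows are from RefSeq (GRCh38.p14), gene positions from GENCODE 29 (GRCh38). Windows were not found for 13 members, which include CTSB, NAGLU and ASAH1. Genes whose exons overlap were listed where the partner had at least 80 counts over all libraries. Tables used pandas 2.3.3 and numpy 2.4.6 (Python 3.11.15). Intervals of log2-fold changes are 95% intervals of the fit.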

Additional observations from a re-analysis of the deposited data

How the results depend on the processing

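Beside the values reported above, 14 alternatives were run. For the 18 members named by the rule, 1418 values stayed on their side of the threshold, 43 lost and 49 gained a call. None changed direction with a call in either setting. The 1418 can include values without a call whose direction turned. The number of members past the threshold moved by more than 1.5 times as follows. Under compound 5 it was 5 with DESeq2 (10.7% of all genes passed), 6 with the replicate block (10.7%) and 6 without the filter (10.5%), and under compound 6 it was 2 each with DESeq2 (3.91%), in a fit of the 4 samples compared (7.87%) and without the filter (5.87%). For compound 4 against compound 5 it was 1 with DESeq2 (1.56%), 1 with the block (0.955%) and 3 without the filter (3.25%), for compound 6 against compound 5 it was 3, 2 and 4 (3.3%, 2.01% and 4.29%), and for compound 4 against compound 6 it was 1 with DESeq2 (0.536%) and 1 without the filter (1.12%). On leaving out a library, the number ranged from 0 to 8 for compound 4, from 0 to 4 for compound 5 and from 0 to 1 for compound 6. The 0 for compound 4 came without DMSO replicate 2 (0.314% of all genes passed), and the number was 1 without DMSO replicate 1 (2.82%) or compound 4 replicate 2 (1.1%) and 3 without compound 4 replicate 1 (6.65%). The 0 for compound 5 came without DMSO replicate 1 (0.556%), DMSO replicate 2 (0.335%) or compound 5 replicate 1 (0.857%), and the 1 for compound 6, CTSB, came without compound 5 replicate 1 (3.14%) or replicate 2 (2.87%).

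The median log2-fold changes of the gene groups kept their sign except in proteases and V-ATPase subunits under compound 6. The V-ATPase median under compound 6 was −0.0372 in a fit of the 4 samples compared, −0.0324 with DESeq2's size factors and −0.0321 without the filter, and it ranged from −0.0294 to 0.0260 on leaving out a library, so its sign is not determined. Medians on leaving out a library ranged from 0.26 to 0.34 (compound 4) and 0.22 to 0.40 (compound 5) for membrane proteins, and from 0.16 to 0.40, 0.0625 to 0.28 and −0.0554 to 0.16 (compounds 4, 5 and 6) for proteases. They ranged from −0.19 to −0.0470, −0.28 to −0.0347 and −0.19 to −0.10 for glycan hydrolases, and from 0.13 to 0.23 (compound 4) and 0.14 to 0.20 (compound 5) for the V-ATPase. A left-out library leaves its group with 1 sample, which is then assumed to vary like the other groups. The cause of these shifts was not tested.

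The limits are 2 replicates per group, the shared DMSO libraries, and concentrations that were not equal between compounds. Changes in RNA do not show protein level, pH or enzyme activity of lysosomes.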
